A study of Mus musculus with 8 samples.

Results

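The guidance ligands and receptors are the genes whose single symbol in the array's probe table begins with Sema, Plxn, Nrp1, Nrp2, Epha, Ephb, Efna, Efnb, Ntn, Unc5, Slit1, Slit2, Slit3 or Robo. By this rule they numbered 70 of the 19937 genes measured, on 75 of the 34760 probesets. They comprised 20 semaphorin genes, 7 of class 3 and 13 of classes 4 to 7, with 9 plexins and 2 neuropilins as their receptors. They further comprised 5 ephrin-A and 3 ephrin-B ligands, 9 EphA and 4 EphB receptors, 5 netrins including the netrin-G gene Ntng1, 3 Slits, 4 Robos and 6 genes beginning with Unc5. Of the last 6, Unc50, a Golgi membrane protein, and Unc5cl are not netrin receptors and came in by their names only.

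The cells were NMuMG, epithelial cells from mouse mammary gland that are widely used to follow epithelial-mesenchymal transition under TGFbeta. All had been stably transfected with either of 2 vectors, a control or one for the major satellite, a repeat found in the heterochromatin next to mouse centromeres. Total RNA was taken from untreated cells (0 h) and after 8 h of TGFbeta, which gave 4 groups of 2 Affymetrix arrays. The dose of TGFbeta, and whether a stable line was 1 clone or a pool, are not stated in the labels. Each array carried 1 of 2 title codes, shared by 1 array of every group, and arrays of the same code were taken as pairs and numbered 1 and 2. Values are log2 levels per gene, and a difference of 1 on this scale is a doubling. Levels are compared within a gene, since probes differ in brightness. The exception is a level taken from olfactory receptor genes, given below, which is only a rough guide for that reason. Differences are fitted log2 differences ± standard error (SE) from limma, with the number as a term in the model and 2 arrays per group. A gene passed at a Benjamini-Hochberg adjusted p under 0.05 over all 19937 genes, and "rose" and "fell" are used only of genes that passed.

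Guidance molecules were named for steering axons, and they also act between epithelial and vascular cells. Secreted class 3 semaphorins mostly signal through a neuropilin that binds the ligand and a plexin that transmits the signal, whereas Sema3e can bind plexin-D1 directly and membrane-bound semaphorins bind plexins. Ephrin-A ligands are tethered by a lipid anchor and ephrin-B ligands span the membrane, and contact between ephrin- and Eph-bearing cells signals in both. Netrins bind Unc5 receptors and DCC, and Slits bind Robos; both pairs can attract or repel cells.

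The array medians over all probesets ran from 7.72 to 7.92. Same-numbered arrays of different groups deviated together from their group means (r = 0.758 to 0.874 across all genes). The first 2 principal components held 49.9% and 36.2% of the variance, and what each of them separated is not shown here. Of 8 epithelial markers, Cdh1, Krt8, Krt18, Krt19 and Cldn3 lay above 7.23, the 95th percentile of the mean levels of 1027 olfactory receptor genes, which served as a stand-in for genes that are off. Epcam (6.84), Cldn7 (6.84) and Esrp1 (6.09) did not. Krt19, a keratin, fell by 0.76 ± 0.09 and 0.72 ± 0.09 in control vector and major satellite cells, and the other 7 epithelial markers did not pass in either line. Smad7, a textbook TGFbeta target, rose by 1.22 ± 0.11 in control vector cells and by 1.18 ± 0.11 in major satellite cells (limma, adjusted p = 0.000123 and 0.000165). Fibroblast markers had 4 of 6 members above the olfactory level, and their mean level over the list was 6.80 to 7.07 in the 4 untreated arrays and 7.13 to 7.29 in the 4 treated arrays. Pdgfra (0.63 and 0.70) and Col1a1 (0.39 and 0.55) rose in both lines, and Pdgfrb rose by 0.33 in major satellite cells, with 0.24 in control vector cells. Col3a1, Dcn and Lum did not pass, and Dcn and Lum were at 5.93 and 4.73. Of the measured markers of endothelial, immune and neuronal cells, 2 of 5, 2 of 4 and 1 of 5 were above that level, and these lists had means that overlapped between untreated and treated arrays. Among them, endothelial Cdh5 rose by 0.32 in control vector cells (0.27 in major satellite cells) and neuronal Tubb3 by 0.31 in major satellite cells (0.09 in control vector cells). In bulk RNA, fewer cells with a transcript and less of it per cell cannot be told apart. The part of these markers in the results was not tested.

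Of the 70 guidance genes, 16 rose and 9 fell after TGFbeta in control vector cells, 35.7% in all. In the same comparison, 14.6% of all genes passed (6.92% higher, 7.63% lower). These genes were proposed as a set with earlier results of these data known, so their share is a description. In major satellite cells 15 rose and 11 fell, or 37.1%, against 15.3% of all genes (6.89% higher, 8.38% lower). The median difference of the 70 genes was 0.07 and 0.08 in the 2 lines, and that of all genes 0.01 and 0.03. In the 2 lines, 13 of the genes rose in both and 9 fell in both, while 29 passed in at least 1. These overlaps were not counted over all genes, so they have no background to be set against. Without the number in the model, 4 guidance genes passed in control vector cells (1.07% of all genes) and 3 in major satellite cells (1.09% of all genes). Those were Plxna4, Nrp2 and Sema3c in both lines and Efna5 in control vector cells.

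Among all genes, 68.4% had at least 1 group mean above the olfactory level, and 59 of the 70 guidance genes did. The 11 below it were Epha1, Epha3, Epha5, Epha6, Plxnc1, Robo2, Robo3, Sema3a, Sema3d, Sema5a and Unc5cl, and none of them passed in any comparison. Among genes above the level, 20.6% and 21.2% passed in the 2 TGFbeta comparisons.

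**Figure D1:**
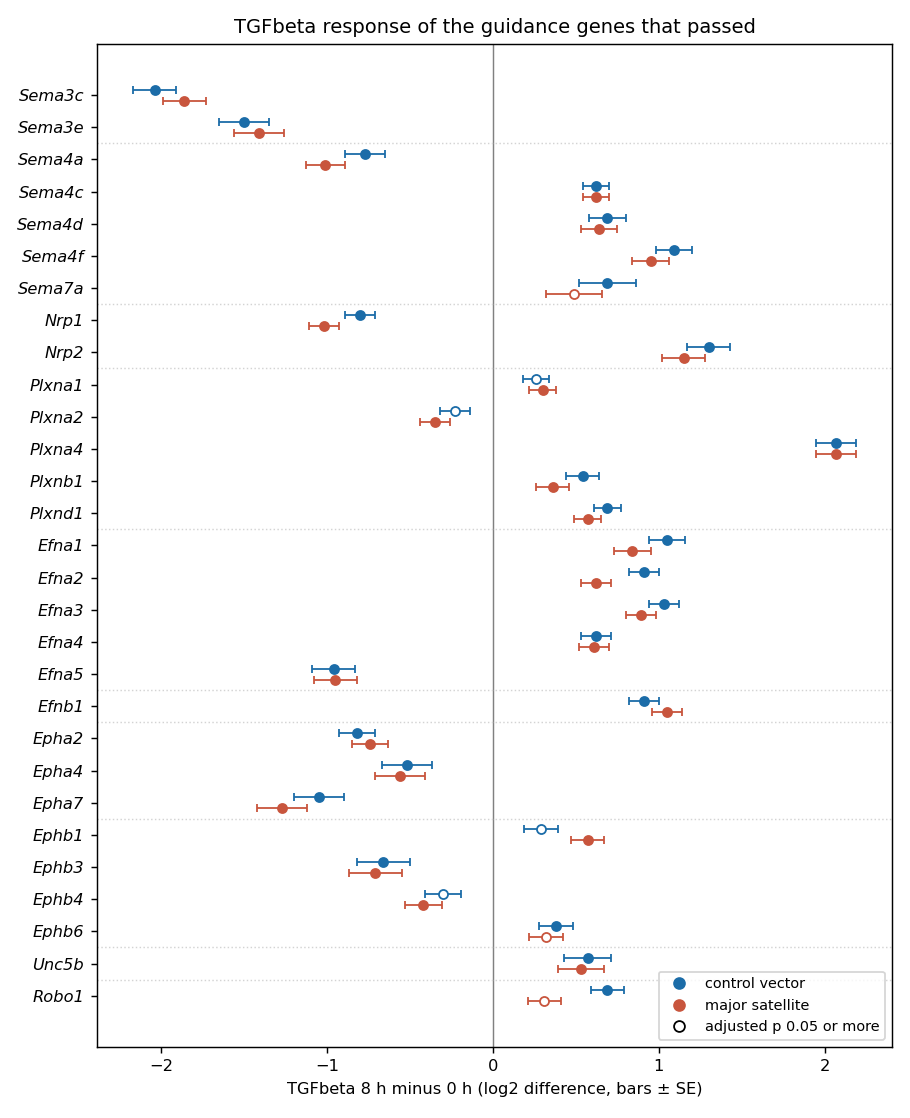
Log2 difference between 8 h and 0 h of TGFbeta (x axis, bars ± SE) for the 29 guidance genes that passed in at least 1 line, grouped by family, with control vector cells in blue, major satellite cells in red and open circles where the adjusted p was 0.05 or more. Sema3c and Sema3e lie farthest to the left and Plxna4 farthest to the right, and in every gene shown the 2 lines lie on the same side of 0.

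Class 3 semaphorins are secreted, and 2 of the 7 fell while none rose. Sema3c, a ligand of neuropilin-plexin receptors, stood at 11.56 and 11.36 in the untreated control vector arrays (numbers 1 and 2) and at 9.66 and 9.18 after TGFbeta. In major satellite cells it stood at 11.40 and 11.48 untreated and at 9.63 and 9.52 treated. The 4 treated arrays were all low and did not overlap with the 4 untreated ones. Sema3c fell by 2.04 ± 0.13 in control vector cells (limma, adjusted p = 2.24e-05, and 0.0114 without the number), which is 4.11-fold. In major satellite cells it fell by 1.86 ± 0.13 (limma, adjusted p = 3.78e-05, and 0.0163 without the number), or 3.64-fold.

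Sema3e, the ligand of plexin-D1, was at 10.36 and 10.84 in untreated control vector cells and at 8.58 and 9.63 after TGFbeta. In major satellite cells its levels were 10.24 and 10.56 untreated and 8.70 and 9.28 treated. Arrays of number 2 were higher in every group, and treated and untreated arrays did not overlap. It fell 2.82-fold in control vector cells (limma, adjusted p = 0.000265) and 2.66-fold in major satellite cells (limma, adjusted p = 0.000371), with an SE of 0.15 on the log2 scale in each line. Without the number, neither fall passed (adjusted p = 0.18 and 0.201). The other 5 class 3 genes did not pass: Sema3b, Sema3f and Sema3g were above the olfactory level with differences from -0.24 to 0.09, and Sema3a and Sema3d were below it.

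Sema3a, Sema3c, Sema3d and Sema3e lie near each other on chromosome 5 in RefSeq's gene order. With 1 gene on either side, this span holds 24 protein-coding genes. Besides these 4, only 5 others were measured. Of these others, Cacna2d1, a calcium channel subunit, rose by 0.91 ± 0.11 and 0.71 ± 0.11. The remaining 4, Speer3, Pclo, Hgf and Cd36, did not pass in either line. Their mean levels, 5.39, 6.97, 5.83 and 5.23, were below the olfactory level, so their not passing says little about the region. The 250 bases before the start of Sema3c, shown because this gene had the largest fall of the 70, are from RefSeq (GRCm38.p6).

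Sema3c, chr5:17574566-17574815, plus strand: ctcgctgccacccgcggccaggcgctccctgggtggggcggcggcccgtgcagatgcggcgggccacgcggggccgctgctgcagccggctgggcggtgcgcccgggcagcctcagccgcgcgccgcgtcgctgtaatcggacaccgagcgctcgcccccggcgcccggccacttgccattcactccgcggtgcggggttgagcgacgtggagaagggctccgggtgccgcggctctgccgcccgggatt

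That window was 78.4% G and C. It held none of 3 motifs searched on both strands: CAGGTG, the E-box that Snail and Zeb factors bind, TGANTCA, the AP-1 site, and GTCTAGAC, the paired Smad box. These letters were in 17.2%, 6.75% and 0.167% of the 32851 promoter windows of the same length in the table. Counted by gene, 19.4%, 7.82% and 0.2% of genes had a window with them. Of the 70 guidance genes 61 had a window, and 10, 3 and 0 of them held the motifs. A missing motif says only that the letters were not in that window.

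Of the 13 membrane-bound semaphorins of classes 4 to 7, 4 rose and 1 fell in control vector cells, and 3 rose and 1 fell in major satellite cells. Sema4f was at 7.03 and 6.48 untreated and at 8.17 and 7.52 treated in control vector cells, and at 7.24 and 6.91 untreated and 8.15 and 7.90 treated in major satellite cells. All treated arrays were above all untreated ones. It rose by 1.09 ± 0.11 and 0.95 ± 0.11 (limma, adjusted p = 0.000285 and 0.00058). Its untreated means, 6.76 and 7.07, were below the olfactory level of 7.23 and its treated means above it, so the size of the rise starts from a level not told apart from genes that are off. Sema4c, a ligand of plexin-B receptors, rose by 0.62 ± 0.08 in both lines, from 9.57 and 9.60 to 10.12 and 10.29 in control vector cells. Sema4d, the ligand of plexin-B1, rose by 0.69 ± 0.11 and 0.64 ± 0.11 on the probeset with the higher level. Its second probeset differed by -0.07 and -0.06, so the rise of Sema4d rests on 1 of 2 probesets; with the mean of both, its difference in major satellite cells was 0.29 and did not pass (limma, adjusted p = 0.0511). Without untreated major satellite array 2 the rise there did not pass either (0.52, adjusted p = 0.061).

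Sema4a, a semaphorin best known from immune cells and the retina, went the other way. It stood at 9.27 and 9.83 untreated and 8.48 and 9.08 treated in control vector cells, and fell by 0.77 ± 0.12 there and by 1.01 ± 0.12 in major satellite cells (limma, adjusted p = 0.00297 and 0.000687). Sema7a, which is held by a lipid anchor and binds integrins and plexin-C1, rose by 0.69 ± 0.17 in control vector cells (limma, adjusted p = 0.0228), from 7.03 and 6.13 to 7.61 and 6.92, with an untreated mean of 6.58 below the olfactory level and a treated mean of 7.26 just above it. Its difference in major satellite cells was 0.49 ± 0.17 (limma, adjusted p = 0.08). The call in control vector cells was lost without untreated array 2 or either treated array of that line (0.42 to 0.82, adjusted p = 0.068 to 0.248). Its receptor gene Plxnc1 was below the olfactory level in every group. The other 8 genes of classes 4 to 7 did not pass in either line, and their differences ran from -0.57 for Sema4g to 0.39 for Sema6c.

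The 3 class 4 semaphorins that rose in both lines each had 1 or more motifs in a promoter window, shown here in capitals within the 250 bases before the start (RefSeq, GRCm38.p6). They are among 10 guidance genes picked for display after the values were seen. The windows of the rest of these, Sema3c, Sema3e, Efna1, Efna3, Efna4, Nrp1 and Nrp2, held none of the 3 motifs. The shares given above are for single motifs. The share of genes with any of the 3 was not counted, so the hits in these semaphorins have no background to be set against.

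Sema4c, chr1:36558382-36558631, minus strand: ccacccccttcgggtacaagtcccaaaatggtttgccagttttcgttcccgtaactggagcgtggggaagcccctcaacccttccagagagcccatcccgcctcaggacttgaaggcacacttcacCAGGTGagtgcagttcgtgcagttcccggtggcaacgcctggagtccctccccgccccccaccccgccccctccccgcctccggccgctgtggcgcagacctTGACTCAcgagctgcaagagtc

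Sema4d, chr13:51748811-51749060, minus strand: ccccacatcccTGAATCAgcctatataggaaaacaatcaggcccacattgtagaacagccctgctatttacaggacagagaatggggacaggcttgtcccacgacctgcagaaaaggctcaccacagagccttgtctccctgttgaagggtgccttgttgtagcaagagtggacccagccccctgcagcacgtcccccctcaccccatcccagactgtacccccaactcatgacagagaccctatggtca

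Sema4f, chr6:82939770-82940019, minus strand: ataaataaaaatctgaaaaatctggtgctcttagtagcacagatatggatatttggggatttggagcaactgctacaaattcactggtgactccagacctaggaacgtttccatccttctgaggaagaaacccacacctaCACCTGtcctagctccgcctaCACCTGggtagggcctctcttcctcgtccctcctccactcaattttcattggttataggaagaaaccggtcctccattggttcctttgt

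In Sema4c the capitals mark CAGGTG 124 bases and TGANTCA 22 bases before the start. In Sema4d they mark TGANTCA 239 bases before it, and in Sema4f CAGGTG on the other strand, 110 and 89 bases before it. No 2 of the motifs overlapped. The windows of 1 other Sema4c start and of 2 other Sema4d starts held none of the motifs.

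The 2 neuropilins, co-receptors that bind class 3 semaphorins and vascular growth factors, moved in opposite directions. Nrp1 was at 11.31 and 11.47 in untreated control vector cells and at 10.42 and 10.75 treated. With the major satellite it was at 11.38 and 11.62 untreated and 10.39 and 10.57 treated. It fell by 0.80 ± 0.09 and 1.02 ± 0.09 (limma, adjusted p = 0.000353 and 0.000117; 0.098 and 0.0505 without the number). Nrp2 was at 10.54 and 10.16 untreated and 11.60 and 11.71 treated in control vector cells, and at 10.54 and 10.17 untreated and 11.49 and 11.52 treated in major satellite cells. It rose by 1.30 ± 0.13 and 1.15 ± 0.13, 2.46-fold and 2.21-fold (limma, adjusted p = 0.000288 and 0.00058; 0.0331 and 0.0489 without the number). For both genes, treated and untreated arrays did not overlap in either line.

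**Figure D2:**
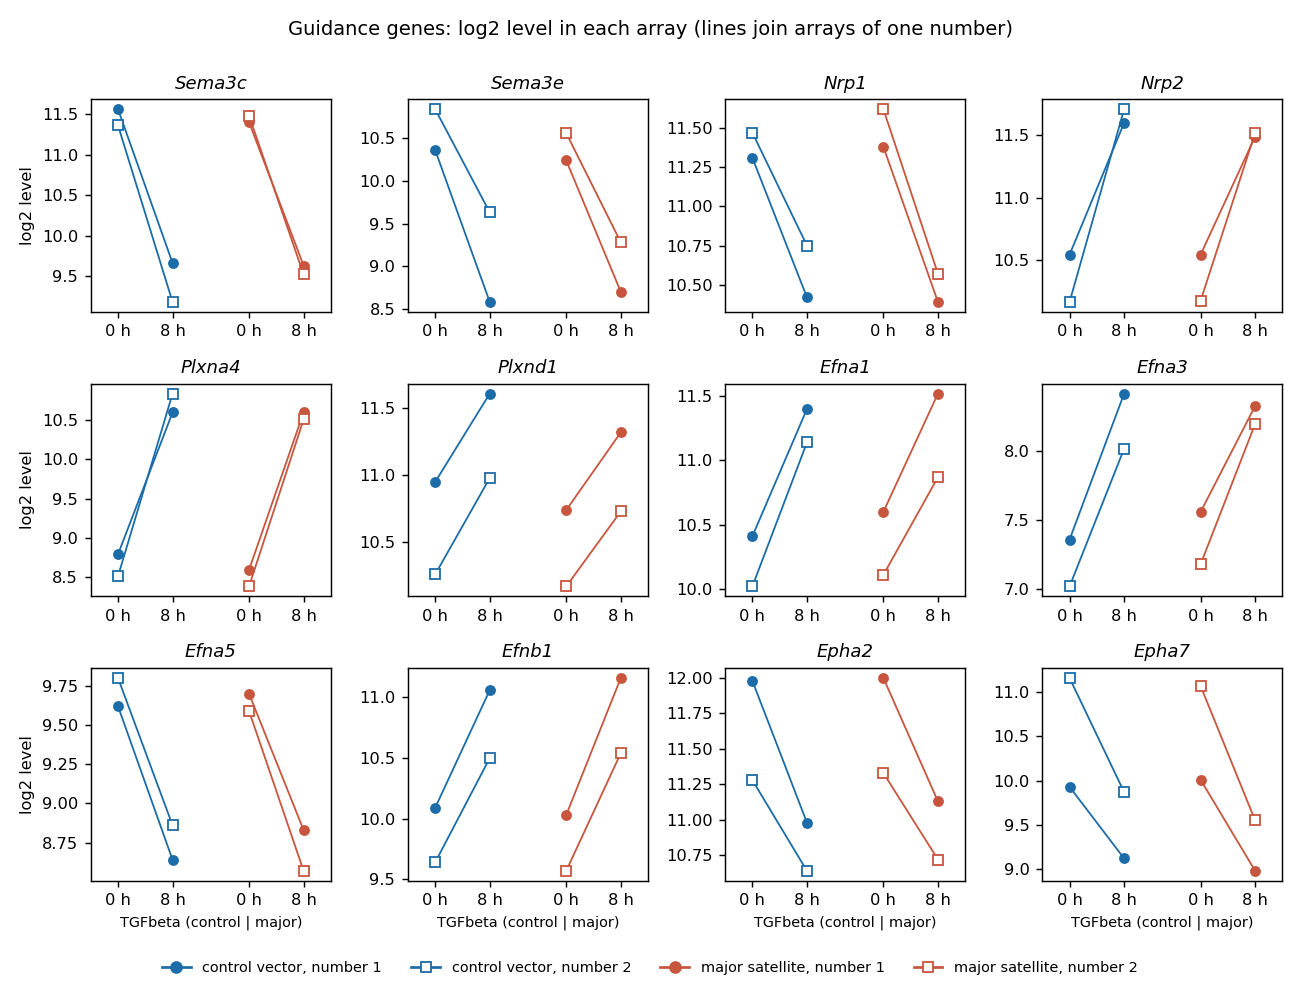
Log2 level in each of the 8 arrays for 12 guidance genes (y axis), at 0 h and 8 h of TGFbeta (x axis), with control vector cells in blue and major satellite cells in red; filled circles are number 1, open squares number 2, and lines join arrays of 1 number. Every line of Sema3c, Sema3e, Nrp1, Efna5, Epha2 and Epha7 goes down and every line of Nrp2, Plxna4, Plxnd1, Efna1, Efna3 and Efnb1 goes up. The 2 numbers are offset in several genes, among them Epha2, Epha7, Plxnd1, Sema3e, Efna1 and Efnb1.

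Of the 9 plexins, 3 rose and none fell in control vector cells, and 4 rose and 1 fell in major satellite cells. Plxna4, a plexin that pairs with neuropilins, stood at 8.79 and 8.51 untreated and 10.60 and 10.84 treated in control vector cells. Its levels in major satellite cells were 8.59 and 8.38 untreated and 10.60 and 10.51 treated. This was the largest rise of the 70 genes, 2.07 ± 0.12 in both lines or 4.20-fold (limma, adjusted p = 2.04e-05 and 2.23e-05; 0.0104 and 0.00959 without the number).

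Plxnd1, the Sema3e receptor, was at 10.95 and 10.26 untreated and 11.61 and 10.98 treated in control vector cells, and at 10.74 and 10.17 untreated and 11.32 and 10.73 treated in major satellite cells. It rose by 0.69 ± 0.08 and 0.57 ± 0.08 (limma, adjusted p = 0.000678 and 0.00197). Treated and untreated arrays did not overlap in control vector cells, and in major satellite cells treated array 2 lay just below untreated array 1. The difference was 0.66 and 0.71 within the 2 numbers in control vector cells and 0.58 and 0.55 in major satellite cells, whereas without the number the adjusted p was 0.739 and 0.816. Plxnb1, the Sema4d receptor, rose by 0.54 ± 0.10 and 0.36 ± 0.10 (limma, adjusted p = 0.00581 and 0.0389). Plxna1 rose by 0.30 ± 0.08 and Plxna2 fell by 0.35 ± 0.09 in major satellite cells, with adjusted p = 0.0404 and 0.0351 from limma. In control vector cells their differences were 0.26 ± 0.08 and -0.23 ± 0.09 and did not pass. In major satellite cells, the calls of Plxna1 and Plxnb1 were lost when any 1 of the 8 arrays was left out, with differences of 0.26 to 0.34 and 0.23 to 0.48 then. That of Plxna2 was lost without any 1 of the 4 major satellite arrays (-0.38 to -0.32). That of Plxnb1 in control vector cells was lost without untreated array 2 or either treated array of that line (0.52 to 0.57, adjusted p = 0.05 to 0.055 in limma). Plxna3, Plxnb2, Plxnb3 and Plxnc1 did not pass in either line, with differences from -0.31 to 0.10.

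All 5 ephrin-A ligands passed in both lines, 4 higher and 1 lower. Efna1, a ligand of EphA2, was at 10.41 and 10.02 untreated and 11.40 and 11.14 treated in control vector cells, and at 10.60 and 10.11 untreated and 11.52 and 10.87 treated in major satellite cells. It rose by 1.05 ± 0.11 and 0.84 ± 0.11 (limma, adjusted p = 0.000254 and 0.000853). Efna3 was at 7.36 and 7.02 untreated and 8.42 and 8.02 treated in control vector cells, and rose by 1.03 ± 0.09 and 0.89 ± 0.09 (limma, adjusted p = 0.000172 and 0.000367). The untreated mean of Efna3 in control vector cells, 7.19, was just below the olfactory level. For both genes every treated array was above every untreated one. Efna4 rose by 0.62 ± 0.09 and 0.61 ± 0.09, and Efna2 by 0.91 ± 0.09 and 0.62 ± 0.09. Treated and untreated arrays of Efna2 overlapped in major satellite cells, where treated array 2 was at 9.10 and untreated array 1 at 9.16.

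Efna5, the remaining ephrin-A, fell. Its levels were 9.62 and 9.80 untreated and 8.64 and 8.86 treated in control vector cells, and 9.70 and 9.59 untreated and 8.83 and 8.57 treated in major satellite cells. The differences were -0.96 ± 0.13 and -0.95 ± 0.13 (limma, adjusted p = 0.0011 and 0.0012; 0.0486 and 0.0505 without the number). The 2 groups of each line did not overlap.

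Efna1, Efna3 and Efna4 are neighbours on chromosome 3 in RefSeq's gene order, with no other protein-coding gene between them. Of the 4 protein-coding genes on either side, Adam15, a metalloproteinase next to Efna4, rose by 0.45 ± 0.10 in control vector cells (limma, adjusted p = 0.0129) and differed by 0.30 ± 0.10 in major satellite cells (adjusted p = 0.068). Trim46, the outermost gene on the Efna1 side, fell by 0.54 ± 0.11 and 0.50 ± 0.11. The other 6 did not pass in either line, and among them Dcst1 had a mean level of 7.2, just below the olfactory level. None of the promoter windows of Efna1, Efna3 and Efna4 held the 3 motifs.

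**Figure D3:**
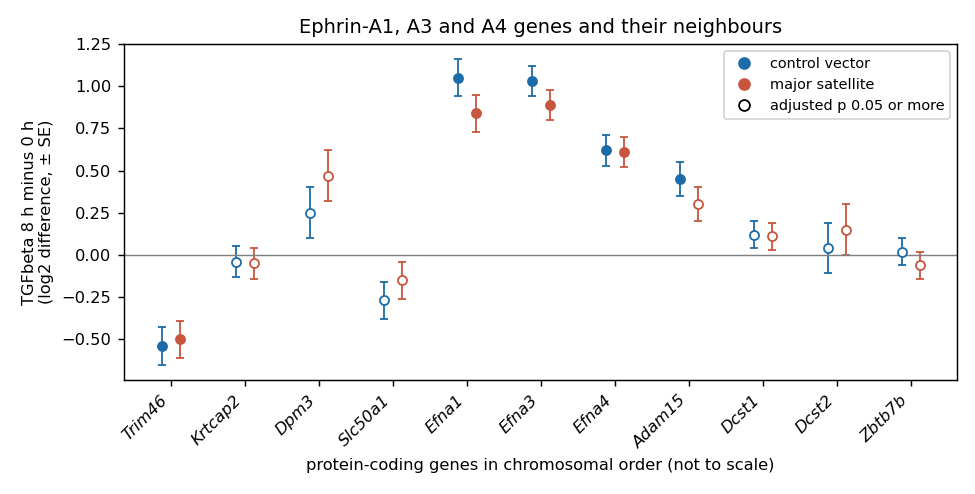
Log2 difference between 8 h and 0 h of TGFbeta (y axis, bars ± SE) for Efna1, Efna3, Efna4 and the 4 protein-coding genes on either side, in chromosomal order but not to scale; control vector cells are blue, major satellite cells red, and open circles have an adjusted p of 0.05 or more. The 3 ephrin genes lie between 0.61 and 1.05, and of their neighbours Adam15 (control vector cells only) and Trim46 are filled.

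Among the ephrin-B ligands, Efnb1 was at 10.09 and 9.64 untreated and 11.06 and 10.50 treated in control vector cells, and at 10.03 and 9.57 untreated and 11.16 and 10.54 treated in major satellite cells. All treated arrays lay above all untreated ones. Efnb1 rose by 0.91 ± 0.09 and 1.05 ± 0.09 (limma, adjusted p = 0.000202 and 0.000108). Efnb2, the ligand of EphB4, differed by -0.35 ± 0.13 and -0.34 ± 0.13 and did not pass, nor did Efnb3 (0.10 and 0.13).

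The Eph receptor tyrosine kinases that these ligands bind had more falls than rises. Of the 9 EphA genes, 3 fell in both lines and none rose. Epha7 was at 9.93 and 11.16 untreated and 9.12 and 9.87 treated in control vector cells, and at 10.01 and 11.07 untreated and 8.98 and 9.55 treated in major satellite cells. It fell by 1.05 ± 0.15 and 1.27 ± 0.15 (limma, adjusted p = 0.00143 and 0.000532); the numbers differed widely, and without the number the adjusted p was 0.706 and 0.514. Epha2, the main ephrin-A1 receptor of epithelia, was at 11.98 and 11.28 untreated and 10.98 and 10.64 treated in control vector cells, and at 12 and 11.33 untreated and 11.13 and 10.72 treated in major satellite cells. It fell by 0.82 ± 0.11 and 0.74 ± 0.11 (limma, adjusted p = 0.00112 and 0.00197). Treated and untreated arrays of each of these genes did not overlap within a line.

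Epha4, which binds ephrins of both classes, fell by 0.52 ± 0.15 and 0.56 ± 0.15 (limma, adjusted p = 0.0468 and 0.033), a call lost in control vector cells without any 1 of 5 arrays (all but treated array 2 of that line and the untreated major satellite arrays) and in major satellite cells without any 1 of that line's 4. Its differences were then -0.62 to -0.22 and -0.70 to -0.42. Epha8 and Epha10, the others above the olfactory level, differed by -0.05 to 0.17 and did not pass. Of the 4 EphB genes, Ephb3 fell in both lines, by 0.66 ± 0.16 and 0.71 ± 0.16 (limma, adjusted p = 0.021 and 0.0154), from 8.91 in both untreated control vector arrays to 8.55 and 7.95. Without the untreated or the treated array 2 of a line its fall there did not pass (-0.52 and -0.40 in control vector cells, -0.61 and -0.49 in major satellite cells). Ephb4 differed by -0.30 ± 0.11 in control vector cells and fell by 0.42 ± 0.11 in major satellite cells (limma, adjusted p = 0.028), which did not pass without either array 2 of that line (-0.29 and -0.27). Ephb1 rose by 0.57 ± 0.10 in major satellite cells (limma, adjusted p = 0.00433), with 0.29 ± 0.10 in control vector cells. Its untreated mean in major satellite cells, 7.09, was below the olfactory level. Its second probeset differed by 0.30 in major satellite cells and by 0.07 in control vector cells. Without untreated major satellite array 2 the rise of Ephb1 did not pass (0.50). Ephb6, whose kinase domain is inactive, rose by 0.38 ± 0.10 in control vector cells (limma, adjusted p = 0.0335), with 0.32 ± 0.10 in major satellite cells. That rise did not pass without any 1 of the 4 control vector arrays (0.29 to 0.46).

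None of the 5 netrins or 3 Slits passed in either line; their differences ran from -0.39 for Slit2 to 0.34 for Ntn4, a basement membrane netrin, both in control vector cells. Unc5b, a netrin receptor, was at 11.82 and 10.92 untreated and 12.08 and 11.80 treated in control vector cells, and at 11.68 and 10.86 untreated and 12.02 and 11.58 treated in major satellite cells. It rose by 0.57 ± 0.14 and 0.53 ± 0.14 (limma, adjusted p = 0.0292 and 0.0392), with overlap between treated and untreated arrays of different numbers in both lines. The rise did not pass in control vector cells without either array 2 of that line (0.35 and 0.38), nor in major satellite cells without any 1 of that line's 4 arrays (0.39 to 0.67). The other 5 Unc5-named genes did not pass.

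Robo1, a Slit receptor, was at 10.12 and 10.58 untreated and 10.72 and 11.35 treated in control vector cells, and at 10.08 and 10.65 untreated and 10.52 and 10.84 treated in major satellite cells. It rose by 0.69 ± 0.10 in control vector cells (limma, adjusted p = 0.00165), and its difference of 0.31 ± 0.10 in major satellite cells did not pass (adjusted p = 0.0623). Treated and untreated arrays overlapped in major satellite cells and not in control vector cells. The difference between these responses was -0.37 ± 0.14 (95% confidence interval -0.68 to -0.06), with an adjusted p of 0.999 from limma. Robo2, Robo3 and Robo4 did not pass, with differences from -0.10 to 0.24.

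The comparison between vectors asked whether the major satellite changed the guidance genes without or with TGFbeta. By limma, 0 of the 70 genes passed at 0 h and 0 at 8 h, where 0.0301% of all genes passed at each time. At an unadjusted p under 0.05 there were 2 and 5 guidance genes, beside 3.28% and 6.51% of all genes. Without the number there were 0 and 0 guidance genes at that threshold. At 0 h the 70 differences, major satellite minus control vector, ran from -0.27 (Slit2) to 0.31 (Sema4f), with a median of 0.00. Sema4f was at 7.03 and 6.48 with the control vector and 7.24 and 6.91 with the major satellite, which overlap (0.31 ± 0.11; limma, adjusted p = 1). The other gene under 0.05 before adjustment, Ntn5, differed by 0.19 ± 0.09.

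At 8 h they ran from -0.36 (Robo1) to 0.18 (Sema4f), with a median of -0.01. Robo1 differed by -0.36 ± 0.10 and Plxnd1 by -0.27 ± 0.08, both with an adjusted p of 0.752 from limma. The other 3 under 0.05 before adjustment were Sema4a (-0.31), Plxnb1 (-0.24) and Plxna3 (-0.22). All 9 plexins had differences below 0 at 8 h, from -0.27 to -0.06, and none passed. Of the 70 guidance genes 40 were below 0, and of all 19937 genes 9400 were. The shared sign of the plexins was not tested. In the fit with the number, the 95% confidence intervals of the 70 genes reached from -0.54 to 0.58 at 0 h and from -0.58 to 0.46 at 8 h. Vector differences of 2-fold lay outside all of these intervals. This is limited to that fit, since without the number the SE could be larger, as for Epha7 at 8 h (0.53 in place of 0.15).

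The difference between the 2 TGFbeta responses, major satellite minus control vector, passed for 0 of the 70 guidance genes, and for 0% of all genes. In limma, 2 guidance genes were under 0.05 before adjustment, Robo1 and Efna2 (-0.28 ± 0.12), beside 3.3% of all genes. Without the number, no guidance gene was. This comparison uses the same arrays as the comparisons it is made from. The differences ran from -0.37 to 0.28, and their confidence intervals from -0.82 to 0.59. The 7 genes that passed in 1 line alone (Ephb6, Robo1, Sema7a, Ephb1, Plxna1, Ephb4 and Plxna2) are therefore not shown to respond differently in the 2 lines.

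**Figure D4:**
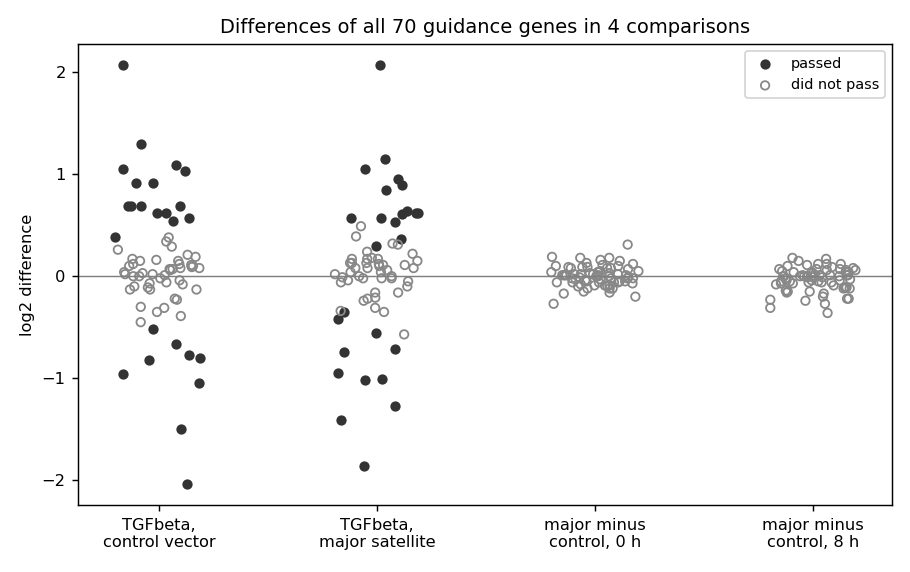
Log2 differences of all 70 guidance genes (y axis) in the TGFbeta comparison of each line and in major satellite minus control vector at 0 h and 8 h (x axis); each point is 1 gene, filled where it passed. TGFbeta differences reach from -2.04 to 2.07, and vector differences stay between -0.36 and 0.31 with no filled point.

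Partners and effectors of guidance receptors formed a further list of 46 genes, all measured. In control vector cells 13 rose and 4 fell, and in major satellite cells 11 rose and 7 fell, or 37.0% and 39.1% of the list beside 14.6% and 15.3% of all genes; its median differences were 0.10 and 0.08. Flrt2 and Flrt3, membrane proteins that bind Unc5 receptors, went opposite ways: Flrt2 rose by 1.43 ± 0.09 and 1.31 ± 0.09, and Flrt3 fell by 1.02 ± 0.19 and 0.88 ± 0.19. Gpc1, a heparan sulfate proteoglycan that binds Slits, rose by 1.20 ± 0.14 and 1.13 ± 0.14. Among effectors, the plexin-linked monooxygenases Mical1 (0.51 and 0.48), Mical2 (0.30 and 0.43) and Mical3 (0.69 and 0.66) and the plexin substrate Rras (0.74 ± 0.09 and 0.48 ± 0.09) rose in both lines. Ngef, the exchange factor ephexin that acts below EphA receptors, fell by 0.91 ± 0.12 and 1.03 ± 0.12, and Chn2, a Rac-inactivating chimaerin, by 0.82 ± 0.09 and 0.65 ± 0.09. Met, the receptor that plexin-B1 can associate with, fell by 0.70 ± 0.12 in major satellite cells and differed by -0.34 ± 0.12 in control vector cells (limma, adjusted p = 0.0882); the difference between these responses did not pass (adjusted p = 0.999). Without the number, 0 partners passed in control vector cells and 1, Ngef, in major satellite cells. In the 2 comparisons between vectors and that of the responses, 0 of the 46 passed.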

How the data were processed

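The deposited table held log2 expression levels for each probeset, in the range that robust multi-array averaging gives. Per the submitters' processing notes, the tools were RMA and limma; no version or genome build is given in the sources used here. Of 34760 probesets, 21640 had 1 gene symbol in the platform's probe table, 1321 had several and 11799 were not listed. Symbols were updated by Entrez identifier through RefSeq (GRCm38.p6), which also gave gene order; promoter sequences came from RefSeq's table of the same build. Each of 19937 genes was represented by its brightest probeset on average.

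All 8 arrays entered 1 linear model (limma 3.58.1, R 4.3.3, empirical Bayes variances), with 1 mean per group and the replicate number as a term (3 residual degrees of freedom), and tests were two-sided with Benjamini-Hochberg adjustment. The number was read from the code in the titles. Same-numbered arrays of different groups deviated together from their group means (r = 0.758 to 0.874 across genes, which are not independent). Nothing in the labels says that replicates were separate cultures, so p-values measure the spread between these arrays, and the number of arrays limits the precision. Named genes were those passing in at least 1 of the 5 comparisons; others are given by family. The members and lists were chosen with earlier results of these data known. Alternatives were no replicate term, the mean of probesets, a filter at the olfactory level, 2 normalizations, an intensity trend and leaving out each array.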

Additional observations from a re-analysis of the deposited data

Results flagged for a closer look

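No group had enough arrays for a search for single outlying arrays. In 5 guidance genes both pairs of arrays moved one way in one setting and both moved the other way in the other. The pattern was not counted over all genes, so this count has no background to be set against. The TGFbeta difference of Ntn5 was 0.24 and 0.07 in the pairs of control vector cells and -0.03 and -0.02 in those of major satellite cells (difference of responses -0.18). The vector difference changed sign between 0 h and 8 h for Efna2 (0.12 and 0.23, then -0.03 and -0.19; difference -0.28), Nrp1 (0.07 and 0.15, then -0.03 and -0.18; difference -0.22), Robo3 (-0.03 and -0.07, then 0.12 and 0.23; difference 0.23) and Efnb1 (-0.06 and -0.07, then 0.10 and 0.04; difference 0.14). In the limma test of these differences the adjusted p was 0.999 for all 5, and only Efna2 was under 0.05 before adjustment.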

How the results depend on the processing

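The replicate number decided most calls. In the fit without the replicate block, 4 guidance genes passed in control vector cells in place of 25, and 3 in major satellite cells in place of 26. Of all genes, 1.07% and 1.09% passed in that fit, in place of 14.6% and 15.3%. Of the 51 calls of single genes, 7 held in that fit. The number was kept in the model because the arrays pair by it, and 36 of the 51 calls held in every alternative that kept it. Each fit with 1 array left out had a single array in 1 group. In the 2 TGFbeta comparisons the numbers of guidance genes and of all genes passing then both varied with the array left out. In the 3 other comparisons the guidance counts of 0 stayed at 0 in every alternative that kept all 8 arrays. Of all genes, 1 to 8 passed there between vectors at 0 h, 1 to 7 at 8 h, and 0 in the difference between responses. So few genes passed that a count of 0 says little about guidance genes in particular. With 1 array left out, the number of all genes passing in these comparisons varied. It was highest at 8 h without treated major satellite array 1. The mean of all probesets, the filter at the olfactory level, centring on the median, quantile normalization and an intensity trend were also run. They left 25 to 27 guidance genes passing in control vector cells and 25 to 30 in major satellite cells. Of all 13631 genes kept by the filter, 3119 and 3292 passed in the 2 lines. In the rest, 2900 to 3023 and 3037 to 3183 of all 19937 genes passed. Of single calls, Sema4d in major satellite cells was lost with the mean of its probesets, Plxna1 with centring and Plxna2 with quantile normalization. None of the 51 changed sign in any alternative or within either replicate number. With 2 arrays per group, only differences large against an SE of 0.08 to 0.22 (0.12 to 0.31 for the difference between responses) could pass.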
